A study of Homo sapiens with 34 samples.

Results

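The genes described here carry the symbols of the subunits of the proteasome, the complex that degrades ubiquitin-tagged proteins in the cytosol and nucleus. They were taken from the RNA-seq tables as the loci whose symbol begins with PSMA, PSMB, PSMC, PSMD, or PSME followed by a digit and whose mean was at least 1 FPKM over the 24 libraries, where FPKM is fragments per kilobase of transcript, scaled to library size. This left 41 genes of the 13979 loci at or above that mean, among 28690 loci in all. They comprised 17 genes of the core, with 7 PSMA genes for the outer alpha rings and 10 PSMB genes for the inner beta rings. The 24 genes of the caps were 6 PSMC genes for the ATPases, 14 PSMD genes, and 4 PSME genes for alternative activators. This grouping, and the name subunit genes, follow the symbols. Most of the PSMD genes encode other subunits of the regulatory cap. PSMD5, PSMD9, and PSMD10 assist its assembly and are not subunits of the finished cap. PSMB11 and PSMA8, which are known from thymus and testis, lay under the minimum, with control means of 0.0115 and 0 FPKM and 6AN means of 0.0254 and 0.0281 FPKM. The 15 rows for PSMB genes on alternate haplotypes were listed at 0 in all libraries. Rows for antisense transcripts, and for PSMC3IP, which is a recombination factor, were left out.

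The cells were U2OS, a human osteosarcoma line, stably carrying a *Bmal1*:*luc* reporter. All cultures were synchronized with dexamethasone, a glucocorticoid. One series received 5 mM 6-aminonicotinamide (6AN), a nicotinamide antimetabolite used to block the oxidative branch of the pentose phosphate pathway (PPP), from which cells draw NADPH, and the other received DMSO as control. Ribosomal RNA-depleted RNA was sequenced every 4 hr at 12 time points labelled CT00 to CT44 in each condition, with 1 library per condition and time point, so that every SD below is taken over 12 time points and holds any change over time as well as the spread between cultures and libraries. The study extracted RNA in triplicate, and the sources used here do not say if those extracts entered the library together. The line is a tumor line in culture, and no second line was measured.

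Depth was not given. From the worth of 1 read at low loci, it ranged from 0.611 to 1.38 of the median library in control and from 0.637 to 1.42 in 6AN. Summed FPKM was 975321 to 1089296 in control and 1080809 to 1281612 in 6AN. In both conditions 2 loci, MIR6723 and MIR4461, held a large part of it, at 31.1 to 34.5% in control and 34.8 to 41.0% in 6AN. Of the U2OS markers, the osteoblast regulator *RUNX2* was at 14.0 ± 1.99 FPKM in control and 13.9 ± 1.61 FPKM in 6AN. *VIM* was lower in 6AN at all 12 time points (917 ± 94.9 and 747 ± 76.5 FPKM), *COL1A1* was lower without overlap (128 ± 31.5 and 33.9 ± 18.3 FPKM), and *COL1A2* was close to 0 (0.033 FPKM in control). Of the markers of other cells, *PTPRC* (0.0289 FPKM in control) and *CD3E* (0 FPKM) of blood cells were at or close to 0, whereas *LYZ* was at 3.01 FPKM in control and 3.85 FPKM in 6AN. Because the control and 6AN tables were normalized separately, differences between conditions are described and not tested. FPKM is scaled to library size, so it gives the level of a transcript relative to the rest of its library. Neither the number of cells nor the total RNA per cell can be read from it.

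A proteasome holds the core, a barrel whose inner beta rings carry the proteolytic sites, and a cap that recognizes ubiquitin chains, removes them, and threads the unfolded substrate into the barrel. PSMB5, PSMB6, and PSMB7 carry the chymotrypsin-like, caspase-like, and trypsin-like activities. In cells exposed to interferon, PSMB8, PSMB9, and PSMB10 can take their places to form the immunoproteasome, which favors peptides for antigen presentation. Transcription of the subunit genes is known to be driven together by NFE2L1 when proteasome activity is low, and NFE2L2 (NRF2), a redox-responsive factor that binds the antioxidant response element, can also act on several of them.

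The promoters of the subunit genes were read because the series also mapped BMAL1 and CLOCK by ChIP-seq, with 1 library per antibody and condition after 24 hr. RefSeq promoters, from 250 bases before to 50 bases after the start (GRCh38.p14), matched 36 of the 41 genes, and PSMA7, PSMB1, PSMB6, PSMB7, and PSMD4 had no entry. The antioxidant response element core TGACNNNGC, searched on both strands, was found in 11 of the 36 promoters (30.6%) and in 13.6% of all 27305 promoters. The E-box CACGTG was found in 3 promoters (8.33%, against 7.43% of all) and CCAAT in 17 (47.2%, against 35.7% of all). The 27305 promoters were not limited to expressed genes, whereas the subunit genes were, so these shares come from unlike sets. Shares over expressed genes alone were not counted. The motifs are matches of letters and not shown to be bound sites.

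None of the 147 sites shared by BMAL1 and CLOCK in control, and none of the 439 in 6AN, was assigned to a subunit gene by the deposited annotation. In the merged peak list, 10 of the 41 loci had a peak within 5 kb (24.4%, against 29.7% of the 13979 loci), and each of these was a BMAL1 peak. CLOCK peaks were within 5 kb of 0 subunit loci in both conditions, against 2.16% of all loci in control and 9.11% in 6AN. With peak centers counted within 500 bp of a RefSeq start, 3 of 36 genes had a BMAL1 peak in control (8.33%, against 9.11% of the 10106 expressed genes with a promoter entry) and 8 of 36 had one in 6AN (22.2%, against 13.1%). The peaks at PSMC3, PSMC4, and PSMD2 were in both conditions, and those at PSMA4, PSMD1, PSMD7, PSMD11, and PSME3 were in 6AN only. A BMAL1 peak 2854 bases before PSMC2 was also in 6AN only. One at PSMC6, 22861 bases after its start, was in control only. With a single library for each antibody and condition, a peak missing from 1 list is not shown to differ between conditions.

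The promoters below are those with a BMAL1 peak in both conditions (PSMC3, PSMC4, and PSMD2), the one with both a BMAL1 peak in 6AN and an E-box (PSME3), the alpha-ring gene with the lowest 6AN level relative to control (PSMA3), and the only subunit gene with a higher mean in 6AN (PSMB5). They are written 5′ to 3′ on the strand of the gene, with matches to the 3 motifs in capitals.
PSMC3, chr11:47426390-47426689, minus strand: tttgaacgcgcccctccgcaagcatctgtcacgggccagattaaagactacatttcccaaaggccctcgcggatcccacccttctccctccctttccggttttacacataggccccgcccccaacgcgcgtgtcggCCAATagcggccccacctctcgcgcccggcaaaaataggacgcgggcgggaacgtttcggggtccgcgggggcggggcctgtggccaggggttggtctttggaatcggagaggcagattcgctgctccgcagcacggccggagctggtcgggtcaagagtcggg
PSMC4, chr19:39970915-39971214, plus strand: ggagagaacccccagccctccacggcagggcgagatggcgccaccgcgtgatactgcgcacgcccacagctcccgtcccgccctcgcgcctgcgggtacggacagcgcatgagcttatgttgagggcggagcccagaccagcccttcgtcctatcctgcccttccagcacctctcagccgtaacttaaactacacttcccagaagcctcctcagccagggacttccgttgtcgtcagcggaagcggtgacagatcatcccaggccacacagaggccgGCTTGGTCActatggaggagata
PSMD2, chr3:184298991-184299290, plus strand: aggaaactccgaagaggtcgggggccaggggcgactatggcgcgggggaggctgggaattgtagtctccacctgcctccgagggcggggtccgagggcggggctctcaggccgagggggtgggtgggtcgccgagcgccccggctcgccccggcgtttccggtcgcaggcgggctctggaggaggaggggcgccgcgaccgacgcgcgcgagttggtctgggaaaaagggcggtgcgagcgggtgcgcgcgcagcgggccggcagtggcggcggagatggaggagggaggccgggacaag
PSME3, chr17:42833147-42833446, plus strand: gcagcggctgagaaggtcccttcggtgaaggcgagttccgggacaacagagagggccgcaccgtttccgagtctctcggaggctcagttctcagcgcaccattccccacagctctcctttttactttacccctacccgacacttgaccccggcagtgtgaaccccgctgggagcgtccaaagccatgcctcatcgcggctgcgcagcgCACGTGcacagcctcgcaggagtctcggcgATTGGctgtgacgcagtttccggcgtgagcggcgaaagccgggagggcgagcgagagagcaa
PSMA3, chr14:58244593-58244892, plus strand: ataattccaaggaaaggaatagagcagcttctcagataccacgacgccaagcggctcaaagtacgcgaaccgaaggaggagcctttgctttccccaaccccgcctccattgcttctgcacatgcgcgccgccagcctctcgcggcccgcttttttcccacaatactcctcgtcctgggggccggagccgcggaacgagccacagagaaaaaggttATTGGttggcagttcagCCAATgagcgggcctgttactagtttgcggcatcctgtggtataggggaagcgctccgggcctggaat
PSMB5, chr14:23035171-23035470, minus strand: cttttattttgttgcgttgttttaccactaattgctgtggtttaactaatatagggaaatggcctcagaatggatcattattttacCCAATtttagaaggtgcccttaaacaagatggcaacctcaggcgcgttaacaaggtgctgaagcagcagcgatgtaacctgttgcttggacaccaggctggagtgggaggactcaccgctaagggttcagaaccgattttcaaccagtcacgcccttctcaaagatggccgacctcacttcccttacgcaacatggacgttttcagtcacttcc
In PSMC3, CCAAT began 114 bases before the start, and the center of the BMAL1 peak lay 104 bases before it. PSMC4 held TGACNNNGC 27 bases after the start, with its peak centered 167 bases before it. The PSMD2 promoter held none of the 3 motifs, and its peak was centered 104 bases before the start. In PSME3, CACGTG began 42 bases before the start, CCAAT began 12 bases before it, and the peak in 6AN was centered 58 bases before it. PSMA3 held CCAAT 35 and 18 bases before its start and had no peak within 5 kb, and PSMB5 held CCAAT 164 bases before its start and likewise had no peak.

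The subunit genes were well expressed in both conditions, and no value among 984 was at 0. In control, mean levels ran from 11.4 FPKM for PSMD5, a chaperone that assists assembly of the cap, to 314 FPKM for PSMA7, an alpha-ring subunit. The median gene mean was 131 FPKM in the alpha ring, 93.3 in the beta ring, 78.4 among the ATPases, 72.6 among the other cap genes, and 84.6 among the activators. FPKM is scaled by transcript length, so these levels can be set beside each other. In the plot of control against 6AN levels, all genes but PSMB5 lay below the line of equal levels. The subunit genes made up 0.392 ± 0.026% of summed FPKM in control and 0.271 ± 0.019% in 6AN, and these ranges (0.365 to 0.455% and 0.25 to 0.31%) did not overlap. The sum in this share includes MIR6723 and MIR4461, whose part of it was larger in 6AN, and their part in the difference was not tested.

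**Figure D1:**
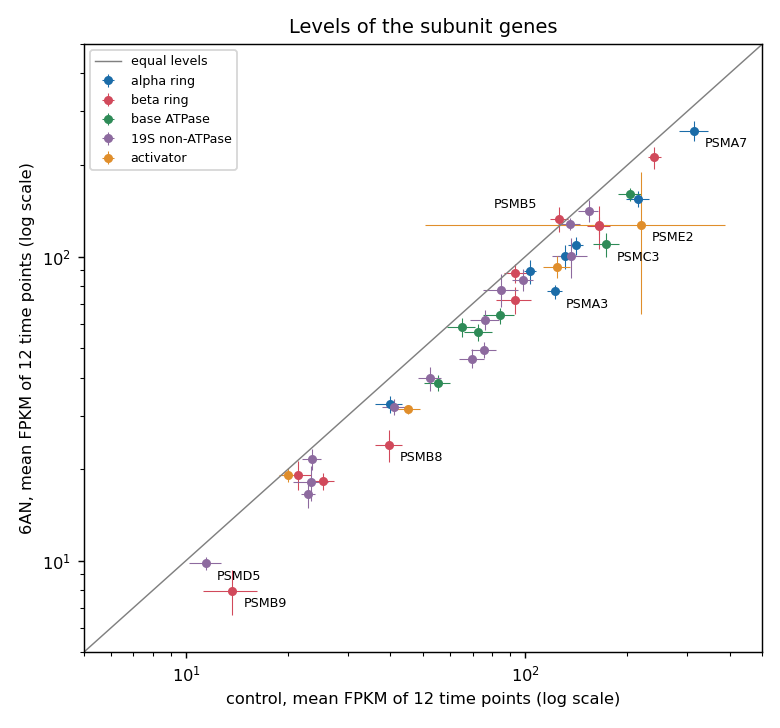
Mean FPKM of each subunit gene in control (horizontal) and 6AN (vertical) on log axes, with bars for the SD over 12 time points and colors for the 5 structural groups. All points but PSMB5 lie below the line of equal levels, and the wide bars of PSME2 come from 2 libraries.

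Levels were lower in 6AN for nearly all of the genes. The mean over time of log2((FPKM in 6AN + 1)/(FPKM in control + 1)) was below 0 for 40 of the 41 genes. It was below 0 for 55.1% of all loci and for 60.3% of loci with a mean of at least 20 FPKM. The median gene stood at -0.36 (SD 0.043 over time points of the median). The medians were -0.37 for the core and -0.35 for the caps, against -0.04 for all 13979 loci and -0.086 for the 4678 loci with a mean of at least 20 FPKM. The median gene in 6AN was at 77.3% of its control mean. At single time points the median over the 41 genes lay between -0.41 (CT08) and -0.30 (CT40). Between 36 and 41 genes were lower in 6AN at each, against 7302 (CT20) to 7728 (CT04) of the 13979 loci. The difference was already present at CT00, the first time point. There the median was -0.39 and 38 of the 41 genes were lower, against -0.024 and 7307 of all loci. How long the cells had been in 6AN at CT00 is not given in the sources used here.

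For 16 genes all 12 values in 6AN lay below all 12 in control (7 of 17 core genes and 9 of 24 cap genes), whereas 10.3% of all loci did so. No subunit gene was separated in the other direction, against 5.89% of all loci. For 28 genes 6AN was lower at all 12 time points (11 core and 17 cap genes), against 20.4% of all loci, and no subunit gene was higher at all 12, against 13.0%. Since separation is easier to see at high levels, the same was counted over genes with a mean of at least 20 FPKM, a limit chosen after seeing the data. There, 15 of 37 subunit genes were separated, against 15.3% of such loci, and 26 were lower at all 12 time points, against 28.9%.

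When each library was rescaled to the same summed FPKM, 26 genes were separated, against 19.1% of all loci, and all 41 had a lower mean in 6AN. That scaling also moved the median of all loci to -0.205 and the share of separated loci that were lower from 63.6% to 88.8%. Relative to the median of all loci, the median subunit gene stood at -0.32 as deposited, -0.345 with equal totals, and -0.315 with libraries divided by their medians.

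**Figure D2:**
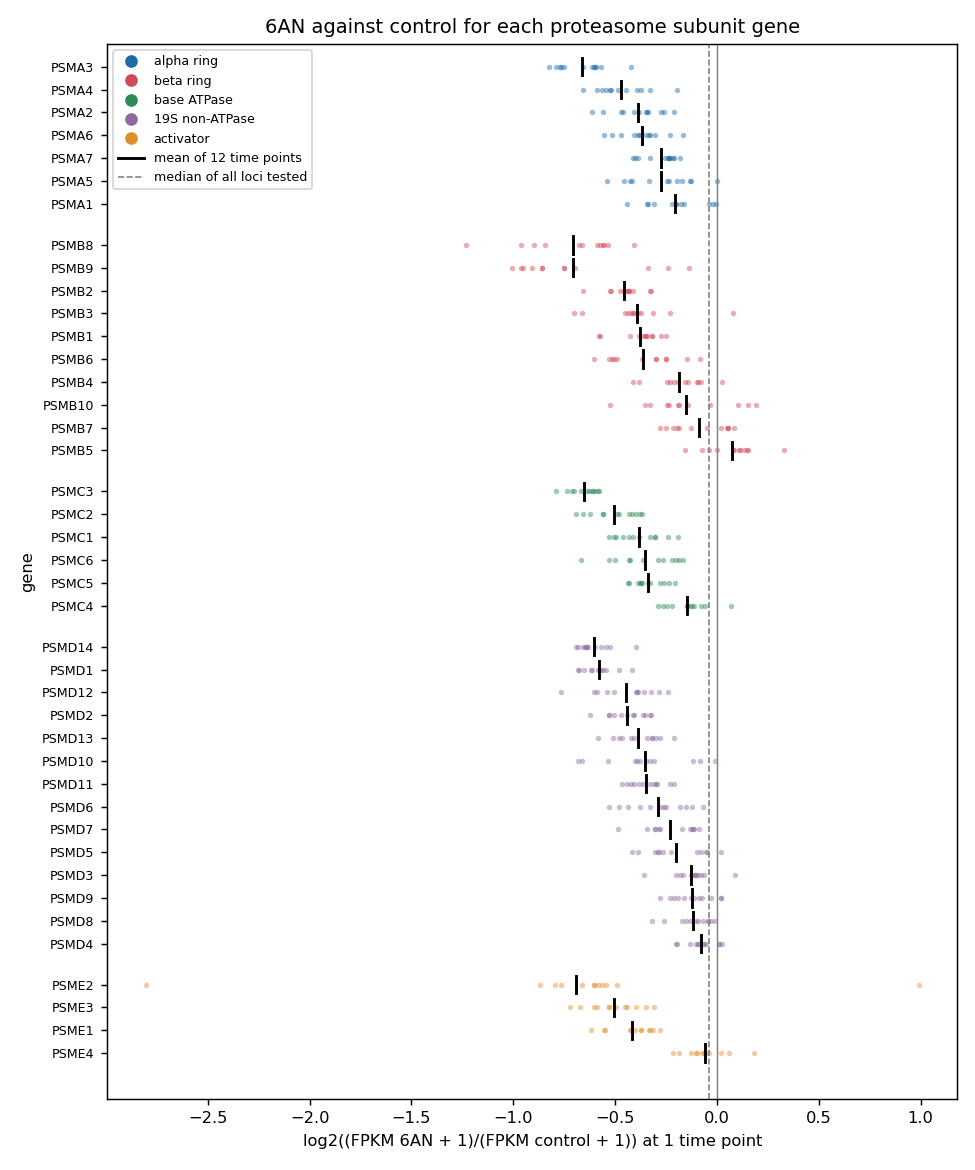
Log2 ratio of 6AN to control, with 1 FPKM added to each, for each subunit gene (rows, grouped by structural part). Each point is 1 of 12 time points, black bars are means, and the dashed line is the median of all loci. Nearly all bars lie left of 0, with PSMB8, PSMB9, PSME2, PSMA3, and PSMC3 farthest.

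In the alpha rings, which form the gate of the barrel, all 7 genes had lower means in 6AN, and PSMA2, PSMA3, PSMA4, and PSMA6 were separated. PSMA3 (chr14:58244843-58272004) ranged from 113 to 132 FPKM in control, with a median of 123, and from 70.6 to 87.0 FPKM in 6AN, with a median of 75.8. The ranges did not overlap, and the log2 ratio was -0.66 ± 0.12. Its antisense neighbor PSMA3-AS1, which shares the locus, stood the other way, at 16.1 ± 1.17 FPKM in control and 21.8 ± 2.57 FPKM in 6AN, higher in 6AN at all 12 time points. Whether strand was used in counting is not given in the sources used here, so reads of such partners cannot be told apart. In all, 8 of the 41 genes, PSMA3, PSMB7, PSMB8, PSMC2, PSMC5, PSMD1, PSMD6, and PSME1, share their locus with other rows. PSMA4 (188 to 247 FPKM in control, 143 to 176 FPKM in 6AN) had a log2 ratio of -0.47, whereas PSMA1, at -0.20, was the least changed of the ring.

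The catalytic genes differed among themselves. The constitutive PSMB5 (chr14:23025851-23035220) ranged from 111 to 137 FPKM in control, with a median of 126, and from 108 to 155 FPKM in 6AN, with a median of 134. The ranges overlapped, and 6AN was higher at 8 of 12 time points, with a log2 ratio of 0.07 ± 0.13 that became -0.12 when libraries were rescaled to equal totals. PSMB7 was also close to its control level, at 83.1 to 105 FPKM in control and 79.3 to 98.0 FPKM in 6AN, with a log2 ratio of -0.09 ± 0.14. PSMB6 ranged from 77.6 to 119 FPKM in control (median 90.3) and from 62.6 to 84.8 FPKM in 6AN (median 69.5), and was lower in 6AN at all 12 time points, at -0.36 ± 0.17.

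Of the inducible counterparts, PSMB8 (chr6:32840717-32844679) ranged from 34.2 to 46.5 FPKM in control, with a median of 39.2, and from 16.6 to 27.2 FPKM in 6AN, with a median of 24.2. Its log2 ratio of -0.71 ± 0.23 was the lowest of the 41 genes, and the ranges did not overlap. PSMB9 had the same mean ratio, -0.71 ± 0.30, but its ranges met, at 8.92 to 17.4 FPKM in control (median 13.9) and 6.19 to 11.1 FPKM in 6AN (median 7.55). PSMB9 was lower in 6AN at all 12 time points. PSMB10 was at 18.9 to 25.6 FPKM in control (median 20.6) and 16.3 to 23 FPKM in 6AN (median 18.6), which overlapped broadly, and its log2 ratio was -0.15 ± 0.22. Within a library, the ratio of PSMB8 to PSMB5 was 0.316 ± 0.027 in control and 0.182 ± 0.024 in 6AN, with no overlap between its ranges (0.266 to 0.355 and 0.138 to 0.222). The ratio of PSMB9 to PSMB6 was 0.149 ± 0.032 and 0.112 ± 0.021, and that of PSMB10 to PSMB7 was 0.228 ± 0.019 and 0.218 ± 0.028, both overlapping. These ratios do not depend on the scaling of a library. PSMB8 shares its locus with TAP1 and PSMB8-AS1.

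**Figure D3:**
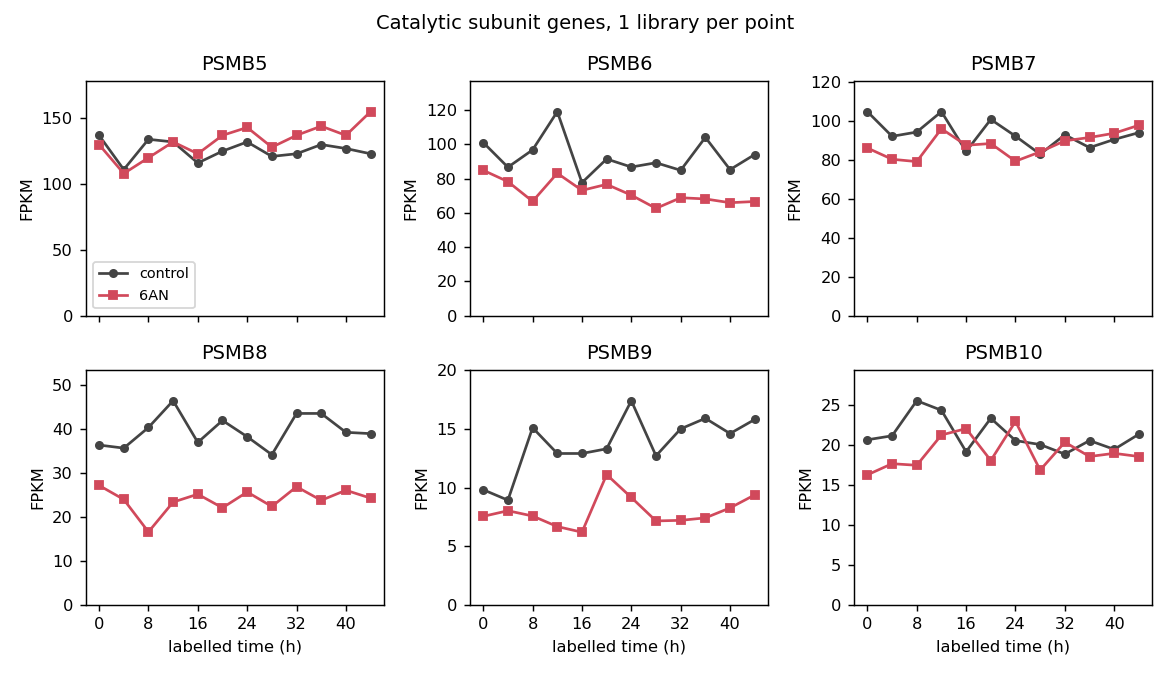
FPKM over labelled time for the constitutive catalytic genes (top) and their inducible counterparts (bottom), control in grey circles and 6AN in red squares, 1 library per point. The 6AN values of PSMB8 (16.6 to 27.2) lie below all control values (34.2 to 46.5), whereas the PSMB5 series cross.

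The non-catalytic beta-ring genes PSMB1, PSMB2, PSMB3, and PSMB4 had log2 ratios of -0.38, -0.45, -0.39, and -0.18. PSMB1 and PSMB2 were separated. PSMB2 ranged from 22.4 to 29.3 FPKM in control, with a median of 25.1, and from 16.6 to 20.1 FPKM in 6AN, with a median of 18.6.

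Among the 6 ATPases, which form the unfolding ring at the base of the cap, PSMC2, PSMC3, PSMC5, and PSMC6 were separated. PSMC6 had a highest value of 63.0 FPKM in 6AN and a lowest of 65.0 FPKM in control. It was not separated when libraries were divided by their medians. PSMC3 (chr11:47418775-47426439) ranged from 153 to 208 FPKM in control, with a median of 172, and from 98.9 to 134 FPKM in 6AN, with a median of 106. Its log2 ratio had the smallest SD of the separated genes, 0.067, and lay between -0.79 and -0.58 at every time point. PSMC4 had a log2 ratio of -0.15 and was higher in 6AN at 1 time point.

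The 14 other cap genes all had lower means in 6AN, and PSMD1, PSMD11, PSMD12, and PSMD14 were separated. PSMD11 was separated narrowly, with a highest value of 36.5 FPKM in 6AN and a lowest of 36.7 FPKM in control. PSMD14 (chr2:161308425-161411717), the metalloprotease that removes ubiquitin chains from substrates, ranged from 64.7 to 90.0 FPKM in control (median 75.3) and from 44.2 to 56.6 FPKM in 6AN (median 49.2), with a log2 ratio of -0.60 ± 0.08. PSMD1 (chr2:231056867-231172827), a scaffold of the cap base, ranged from 61.3 to 84.9 FPKM in control (median 68.8) and from 42.9 to 54.9 FPKM in 6AN (median 45.7), with a log2 ratio of -0.58 ± 0.08. Neither gene overlapped between conditions. The ubiquitin receptor PSMD4 was least changed, at 114 to 153 FPKM in control and 116 to 136 FPKM in 6AN, and PSMD8, PSMD9, and PSMD3 were also within -0.13 of control on the log2 scale.

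The activators, which open the barrel without ubiquitin recognition, were unequal. PSME3 (chr17:42833397-42843760), the nuclear activator, ranged from 40.5 to 53.4 FPKM in control (median 44.5) and from 30.0 to 33.8 FPKM in 6AN (median 31.3). Its ranges did not overlap, and the log2 ratio was -0.51 ± 0.13. PSME1, one of the pair of interferon-inducible activators, was at 97.1 to 142 FPKM in control (median 124) and 77.9 to 101 FPKM in 6AN (median 94.2), lower at all 12 time points, at -0.42 ± 0.11. Its partner PSME2 shares a row with the microRNA gene MIR7703 and had 2 values far from the rest, 754 FPKM in control at CT12 and 325 FPKM in 6AN at CT32. With all 12 time points, its log2 ratio was -0.69 ± 0.82. Without CT12 and CT32, left out after seeing the data, PSME2 was at 157 to 186 FPKM in control and 99.2 to 117 FPKM in 6AN, which did not overlap, and the ratio was -0.65 ± 0.12. PSME4, known for its role in spermatogenesis and DNA repair, was at 18 to 22.1 FPKM in control (median 19.6) and 17.9 to 21.7 FPKM in 6AN (median 18.8), and was the least changed cap gene, at -0.06 ± 0.11.

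**Figure D4:**
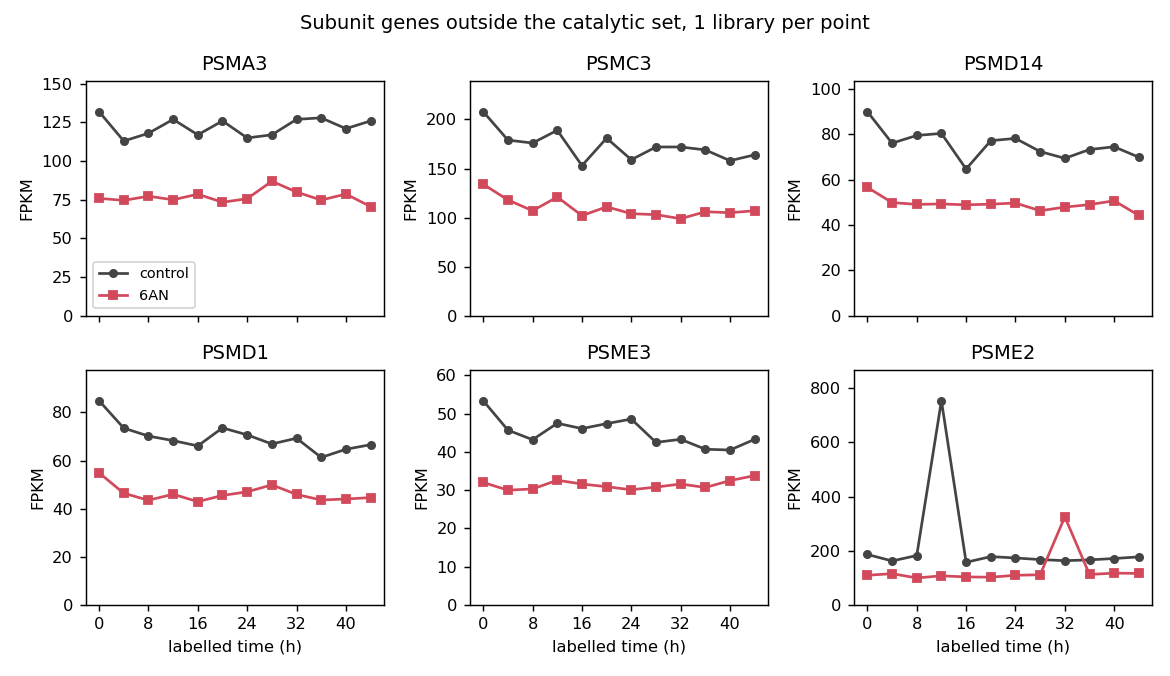
FPKM over labelled time for PSMA3, PSMC3, PSMD14, PSMD1, PSME3, and PSME2, control in grey circles and 6AN in red squares, 1 library per point. The first 5 genes are lower in 6AN without overlap, and PSME2 has single high values in control at CT12 (754) and in 6AN at CT32 (325).

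Other genes of the pathway were described in the same way. These were 28 genes for assembly chaperones, the inhibitor PSMF1, associated factors, regulators of transcription, and ubiquitin, all expressed. Of these, 2 were separated with lower levels in 6AN and 1 with higher levels, against 10.3% and 5.89% of all loci. At all 12 time points, 7 were lower and 6 higher, against 20.4% and 13.0% of all loci. The median log2 ratio was -0.056. Those separated with lower levels were VCP, the segregase that extracts ubiquitinated proteins (161 ± 12.6 FPKM in control and 113 ± 11.7 FPKM in 6AN), and RAD23B, a shuttle for ubiquitinated substrates (63.9 ± 2.45 and 50.7 ± 3.07 FPKM). KIAA0368, a proteasome adaptor, was higher, at 12.6 ± 0.595 FPKM in control and 16 ± 0.633 FPKM in 6AN. NFE2L1 overlapped between conditions (64.1 ± 2.37 and 62.5 ± 4.05 FPKM), with a log2 ratio of -0.04. NFE2L2, added after its values were seen, was higher in 6AN at 11 of 12 time points (33.7 ± 2.56 and 39.5 ± 4.08 FPKM), with overlapping ranges and a log2 ratio of 0.22. Whether the subunit genes differ from these 28 genes was not tested.

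Of 6 antigen presentation genes that interferon induces with the immunoproteasome, 0 were separated, against 10.3% (lower) and 5.89% (higher) of all loci. At all 12 time points, 1 was lower and 0 were higher, against 20.4% and 13.0% of all loci. With 6 genes, these counts cannot be told apart from those shares. The median log2 ratio was -0.134. B2M, the light chain of MHC class I, was the one lower throughout, with overlapping ranges (544 ± 46.7 and 441 ± 22.2 FPKM). The peptide transporter gene TAP1, which lies beside PSMB8, was at 21.3 ± 2.12 FPKM in control and 22.5 ± 1.98 FPKM in 6AN, higher in 6AN at 9 of 12 time points, and was the only one of the 6 with a log2 ratio above 0 in the values as deposited.

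Within a condition, coefficients of variation over the 12 libraries were 4.08% for PSMA1 and 18.1% for PSMB9 in control, the lowest and highest apart from PSME2. The CT00 libraries stood highest, with 36 of 41 genes above their own mean in control (median deviation 0.176 on the log2 scale) and 31 of 41 in 6AN (0.128), where the median of all loci moved by 0.014 and 0.018. Of the 13979 loci, 7368 in control and 7441 in 6AN were above their mean at CT00. At CT16 only 5 of 41 genes were above their mean in control, and 11 of 41 in 6AN, against 6154 and 6676 of the 13979 loci.

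**Figure D5:**
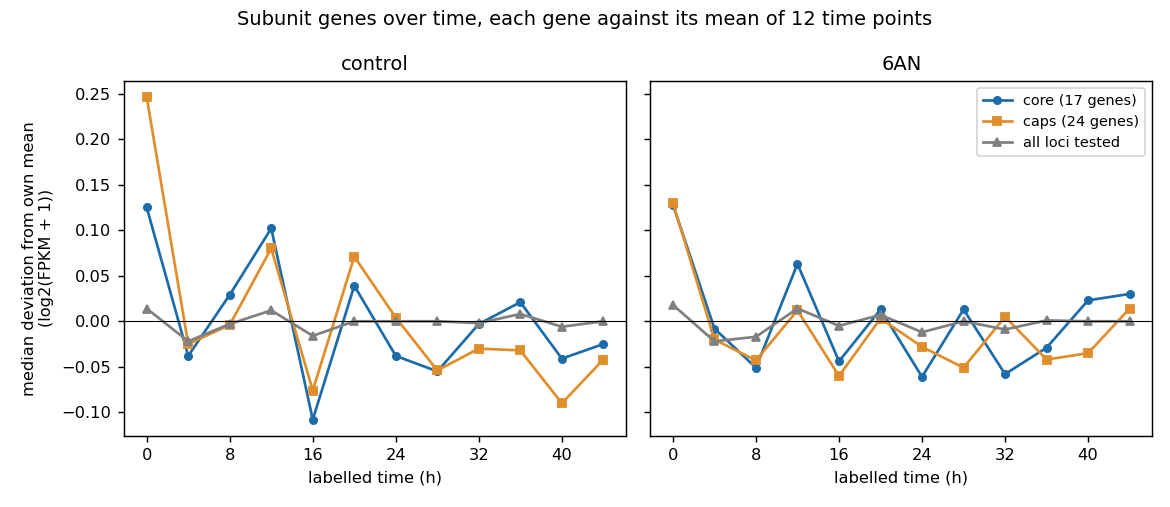
Median deviation of log2(FPKM + 1) from the mean of each gene over 12 time points, for core genes, cap genes, and all loci, in control (left) and 6AN (right). Both parts of the complex are highest at CT00 and lie closer to their means at the later times.

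Linear trends were tested within each table with limma, with a 24 hr cosine in the model and adjusted p over all 13979 loci. In control, 1 of 41 genes had a downward trend at an adjusted p of at most 0.05, against 2.96% of all loci, and 0 had an upward trend, against 2.63%, while 8 genes had an unadjusted p under 0.05, against 20.1% of all loci. The called gene was PSMD2, a scaffold of the cap base, which ranged from 176 FPKM at CT00 to 112 FPKM at CT40, with a slope of -0.41 ± 0.08 (SE) per 44 hr on the log2 scale and an adjusted p of 0.0206. PSME3 (adjusted p = 0.052) and PSMD1 (adjusted p = 0.0726) came next. The slope was negative for 33 of 41 genes, with a median of -0.16 per 44 hr, against a median of 0.002 over all loci. The share of all loci with a negative slope was not counted. Without the CT00 library, no gene was called and the median slope was -0.076. Over all loci, calls went from 781 to 465. Leaving out CT12 or CT28 likewise left 0 called genes, with 477 and 564 of all loci called. Leaving out CT04, CT32, or CT16 gave 2, 3, or 4 genes, with 645, 512, and 697 of all loci called.

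In 6AN, 6 genes fell and 2 rose, against 13.2% and 11.0% of all loci; these shares of 41 genes were near the background for falls and under it for rises. PSMD2 fell there too, from 140 FPKM at CT00 to 87.5 FPKM at CT40 (slope -0.51 ± 0.11 SE, adjusted p = 0.00969). PSMA7 (slope -0.29, adjusted p = 0.012), PSMB6 (slope -0.37, adjusted p = 0.017), PSMB3, PSMD3, and PSMD8 also fell. PSMD12 (slope 0.325, adjusted p = 0.0223) and PSMB5 (slope 0.29, adjusted p = 0.0392) rose. The median slope over the 41 genes was -0.01. Leaving out CT00 left 2 genes that fell and 2 that rose, with a median slope of 0.035. Over all loci, the falls went from 1850 to 1116 and the rises from 1541 to 1106. Leaving out CT32 left 3 genes that fell and 0 that rose, with 1481 falls and 1188 rises over all loci. Leaving out CT12 left 4 called genes, with 2709 of all loci called. Leaving out CT04, CT08, CT28, CT36, or CT40 left 5, with 2640 (CT28) to 2996 (CT40) of all loci called. With libraries divided by their medians, 6 genes fell, 4 rose, and the median slope was 0.018. Over all loci, 1706 fell, 1839 rose, and the median slope was 0.022. The difference between the slopes of the conditions was not tested.

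Rhythms of 24 hr were tested by ranks against umbrella shapes, after the RAIN method, with p from random orders of the libraries. At p of at most 0.01, 1 of 41 genes was called in control, against 0.937% of all loci, and 0 in 6AN, against 1.02%. These shares of all loci are near what a limit of 0.01 gives without any rhythm. With RAIN itself at this limit, the study called more transcripts in both conditions. A gene not called here is therefore not shown to lack a rhythm. At an unadjusted p under 0.05 there were 3 and 2 genes, against 5.03% and 4.19% of all loci. Harmonic regression called 0 genes in both conditions at p of at most 0.01, against 199 loci in control and 278 in 6AN. The called gene was PSMB8, highest at CT12 (46.5 FPKM) and lowest at CT28 (34.2 FPKM) in control, with p = 0.00386 by this permutation test and an adjusted p of 0.907. PSMA1 (97.6 to 114 FPKM, p = 0.0311 by permutation) and PSMD1 (p = 0.0383 by permutation) followed in control. In 6AN, the smallest p belonged to PSMD1 (0.0208 by permutation), PSMB2, and PSMB9, with adjusted p of 1. After adjustment, no locus of the 13979 passed 0.05 in either condition.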

How the data were processed

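The authors deposited FPKM for 28690 loci in a control and a 6AN table, each normalized separately across its own 12 libraries, and per the labels used TopHat, Bowtie, Cufflinks, and HOMER on hg38, with versions not given in the sources used here. RNA-seq reads were single-end of 50 bp, and ChIP-seq reads were paired-end. Peak scores in the deposited merged peak list were used only to tell which libraries hold a peak, and tag signals at shared sites were not used here. All per-sample RNA columns were used.

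A pseudocount of 1 FPKM was added before logarithms. A locus was separated where all 12 values of one condition lay beyond all 12 of the other. Trends were fitted with limma 3.58.1 (R 4.3.3) on linear time with a 24 hr cosine, with Benjamini-Hochberg adjustment over 13979 loci. The umbrella test folded time into 6 phases of 2 points and used 1000000 random orders, and all tests were two-sided or over all shapes. Other values used Python 3.11.15, NumPy 2.4.6, pandas 2.3.3, and matplotlib 3.10.9. The methods were tested on simulated data. Read totals were unknown, so no counting error was computed.

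The members, lists, and tests were chosen with earlier results of these data known. Named genes were all subunits by role, with full values for catalytic genes, activators, extremes and the largest separated genes, and the 3 smallest p per test. At most 4 other pathway genes were to be given values, and NFE2L2 was added to these after its values were seen. A further gene of the antigen presentation list is not reported here.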

Additional observations from a re-analysis of the deposited data

How the results depend on the processing

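The conditions were normalized apart, and each was sampled once per time point, so no error between experiments is known. Rescaling to equal FPKM totals gave 26 separated genes in place of 16 and median log2 ratios of -0.549 over all subunit genes, -0.559 in the core, and -0.538 in the caps, and it raised the loci separated downward from 1438 to 2676. Leaving out each time point gave 16 to 21 separated genes, with 21 without CT00. Leaving out a time point can only keep or add separated genes, so these counts do not show how firm the 16 are. The same count over all loci was not made. The medians without each time point were -0.376 to -0.351 (all), -0.386 to -0.353 (core), and -0.375 to -0.335 (caps). Trend calls ran from 0 to 4 in control and from 3 to 8 in 6AN when a time point was left out. Over all loci, they ran from 465 to 697 in control and from 2222 to 3342 in 6AN. Dividing libraries by their medians gave 3 called genes in control, with 908 of all loci called. Rhythm calls in control were 0 after removing a linear trend, 0 by harmonic regression, and 3 at p of at most 0.05, and in 6AN 2 at that limit. Harmonic regression without each time point gave 0 to 1 in both conditions, against 139 to 253 of all loci in control and 236 to 426 in 6AN. The umbrella test was not run there because it needs equal numbers per phase. Ratios matched libraries by labelled hour, but no blocked test was run, since the labels give no replicate numbers and the conditions were not tested against each other. Dividing libraries by their medians also changed the 6AN trends by direction, with 4 upward genes in place of 2 and a median slope of 0.018 in place of -0.013. Over all loci, upward calls went from 1541 to 1839. The other alternatives kept the direction of the medians of log2 ratios and kept the total counts of separated, trending, and rhythmic genes within a factor of 1.5.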
